A study of Mus musculus with 2 samples.

Results

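Habenula-like neurons marked by Pde11a were examined in 2 single-nucleus RNA sequencing (snRNA-seq) libraries of mouse thalamus. A nucleus was kept if it had 200 to 7500 detected genes and if at most 2% of its unique molecular identifiers (UMIs, the counts of single captured transcripts) came from mitochondrial genes. It was taken as a Pde11a nucleus if it held at least 2 UMIs of Pde11a and at least 1 UMI of D130079A08Rik, more UMIs of Pde11a than of Ptprq, and no UMI of Chat, Slc5a7, Gad1 or Gad2. These conditions were met by 762 of 38150 kept nuclei, 370 of 16373 in the sham library and 392 of 21777 after injury. The nuclei were thus chosen by the measured UMI counts of these 7 genes, so the levels of its genes are a description, and no test was made of them.

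The nuclei came from the thalamus of C57BL/6J female mice aged 3 months, taken 21 days after a cortical ablation injury (CAI), in which cortex is removed by surgery, or after a sham operation. Thalamus of the operated side was used, nuclei of 4 mice were pooled for each library, stained with propidium iodide and sorted, and each group was 1 library. The mice of a pool cannot be told apart, so there was no replicate, no difference between the libraries was tested, and intervals (all 95%) reflect only the error of counting. The habenula borders the thalamus, and how much of it was included in each dissection was not given in the sources used here.

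The habenula is a small paired nucleus of the epithalamus. Its medial part sends its output to the interpeduncular nucleus, uses glutamate together with acetylcholine or the tachykinin peptides in different subnuclei, and is known for its dense nicotinic receptors, while its lateral part reaches the midbrain monoamine nuclei. Pou4f1 (Brn3a) is a transcription factor that specifies medial habenula neurons, and Tac1 and Tac2 encode the precursors of substance P and neurokinin B. Pde11a encodes a phosphodiesterase that degrades both cAMP and cGMP.

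There were 137850696 UMIs over 16390 barcodes after sham operation and 180106314 UMIs over 21828 barcodes after injury. Kept nuclei had medians of 7190 and 6810 UMIs, and Pde11a nuclei had medians of 5496 (range 1020 to 30522) and 6179.5 (range 1279 to 41775). The injury Pde11a nuclei were thus the deeper ones, although the injury library was the shallower one. A doublet score called 60 sham Pde11a nuclei (16.2%) and 80 injury ones (20.4%) as likely doublets, against rates set at 13.1% and 17.4% of the libraries. The 2 libraries shared 101 cell barcodes, among them 4 sham and 2 injury Pde11a nuclei, and no barcode was a Pde11a nucleus in both. Their part in the results was not tested.

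Levels of Nwd2 were lower just outside the border that each rule gene set. The median nucleus held 5 UMIs of Pde11a in each library, and 9 (sham) or 10 (injury) UMIs of D130079A08Rik, a long noncoding RNA. Just inside the border, the 52 sham and 61 injury nuclei with exactly 2 Pde11a UMIs had 3691 and 3507 CPM (UMIs scaled to a total of 1e6) of Nwd2, a gene strongly expressed in the medial habenula. Just outside it, the 65 and 81 nuclei with 1 Pde11a UMI that met all other conditions still had 2203 and 2218 CPM. On the other edge, the 11 and 17 nuclei with a single D130079A08Rik UMI had 1261 and 1711 CPM of Nwd2, and the 155 and 196 nuclei without one had 207 and 165 CPM. A UMI of Ptprq was present in 179 sham (48.4%) and 182 injury (46.4%) Pde11a nuclei, so Ptprq transcripts were common among them below the level of Pde11a.

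For comparison, 3 sets of nuclei were formed within each library. Ptprq nuclei (167 sham, 150 injury) held at least 2 UMIs of Ptprq and more of it than of Pde11a, Chat nuclei (350 and 575) held at least 2 UMIs of the cholinergic genes Chat and Slc5a7, and other glutamatergic nuclei (7575 and 7885) held a UMI of Slc17a6 and belonged to no other set. All 3 lacked Gad1 and Gad2. When nuclei were arranged on 30 principal components without the 7 genes used in the rules, 63.9% of the 15 nearest neighbours of a sham Pde11a nucleus and 64.0% of those of an injury one were Pde11a nuclei themselves. Around all other nuclei the share was 0.956% and 0.850%. Ptprq nuclei made up 3.66% and 3.32% of these neighbours, Chat nuclei 0.631% and 0.833%, and other glutamatergic nuclei 11.2% and 10.3%. A single cluster of that graph held 348 of the 370 sham Pde11a nuclei (94.1%) and 352 of the 392 injury ones (89.8%). That cluster had 630 sham or 830 injury nuclei, so many of its nuclei did not meet the rule, among them 6 and 86 Chat nuclei. Most Pde11a nuclei thus lay together, mixed with other nuclei, on genes that the rule had not read.

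Markers of the medial habenula were high in these nuclei, and those of the lateral habenula and of thalamic relay neurons were not. Of 16 medial habenula markers, 2 were used by the rule and 9 of the others reached a mean of 20 CPM over the Pde11a and other glutamatergic nuclei. All 9 were at least 2-fold higher in the Pde11a nuclei of both libraries, against 5.76% of the 6754 genes that passed the same filter, and their median log2 ratio was 4.24 (sham) and 3.93 (injury), against 0.03 and 0.05 over all genes. A gene that is rare outside the Pde11a nuclei passes this filter only when it is high in them, so the count describes the nuclei and is no test. Of 11 lateral habenula markers 5 passed the filter, 0 were 2-fold higher and 2 were 2-fold lower (7.05% of all genes were), with medians of -1.37 and -0.95. Of 10 thalamic relay markers 7 passed, and 4 were lower, among them Prkcd at 42.0 and 46.4 CPM against 168 and 175 CPM, and Rora at 818 and 955 CPM against 2572 and 2799 CPM. The vesicular glutamate transporter gene Slc17a6 (VGLUT2) was at 123 and 115 CPM. Its 217 and 202 CPM in the other glutamatergic nuclei were set in part by their choice on this gene. Slc17a7 (VGLUT1) was at 86.5 and 87.4 CPM, against 24.6 and 22.8 CPM.

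**Figure D1:**
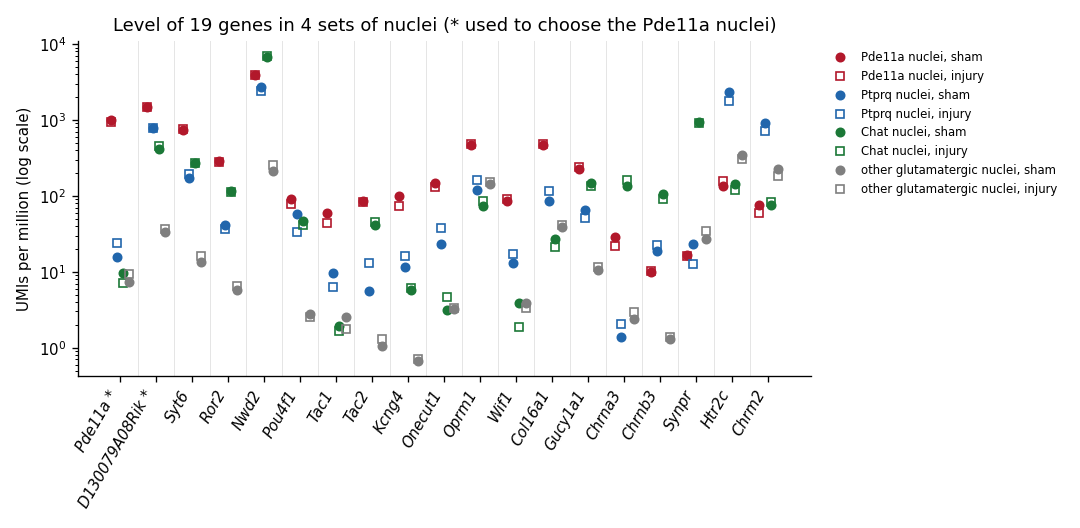
CPM (log scale) of 19 genes in 4 sets of nuclei, summed over each set, with filled circles for the sham and open squares for the injury library. Pde11a and D130079A08Rik chose the Pde11a nuclei. Syt6 stood at 743 and 755 CPM in the Pde11a nuclei and at 13.4 and 16.3 CPM in other glutamatergic nuclei, and in each set the sham and injury points of most genes lay close together.

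Marker transcripts were found in single Pde11a nuclei and not only in their sum. To compare shares at equal depth, each nucleus was thinned to 3000 UMIs, which left out 49 sham and 39 injury Pde11a nuclei and kept 321 and 353. Syt6, which encodes a synaptotagmin, was then detected in 81.6% (interval 76.9 to 85.7) of sham and 81.0% (76.5 to 85.0) of injury Pde11a nuclei, and Nwd2 in 98.1% and 96.3%. Ror2, which encodes a receptor for Wnt5a, was detected in 56.7% and 55.5%. Oligodendrocyte nuclei, which should lack these transcripts, were read at the same depth as a background. Whether it came from free RNA, doublets or both was not tested. Before thinning the medians of oligodendrocyte nuclei were 1941 and 2155.5 UMIs, and only 104 of 646 sham and 316 of 1412 injury ones reached 3000. There Syt6 was detected in 0.962% and 4.75%, Ror2 in 2.88% and 2.85%, and Nwd2 in 8.65% and 14.2%. Pou4f1 was detected in 28.0% and 24.1% of Pde11a nuclei and in 0.962% and 0.633% of oligodendrocyte nuclei. Every share of these genes in the Pde11a nuclei thus lay above the level in oligodendrocyte nuclei. The Chat and Ptprq nuclei held these transcripts too. In sham and injury Chat nuclei Syt6 was detected in 51.7% and 52.2%, Ror2 in 27.2% and 27.8%, Nwd2 in 93.4% and 95.6%, and Pou4f1 in 14.8% and 12.5%. In Ptprq nuclei Syt6 was detected in 27.4% and 29.1%, Ror2 in 9.55% and 9.22%, and Pou4f1 in 17.8% and 9.93%.

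Against the other glutamatergic nuclei, 389 genes (5.76%) were at least 2-fold higher and 476 (7.05%) at least 2-fold lower in both libraries. The 15 leading genes, ranked on the weaker library among genes with at least 50 UMIs in the Pde11a nuclei of each library, included transcription factors, a peptide, a channel subunit and surface receptors. This floor differs from that of the counts, and Tyrp1, Bmp7 and Avil were below a mean of 20 CPM. Kcng4, which encodes a silent subunit of voltage-gated potassium channels, stood at 99.9 CPM in sham and 74.5 CPM in injury Pde11a nuclei, and at 0.669 and 0.710 CPM in the other glutamatergic nuclei, log2 ratios of 7.22 and 6.71. Tac2 stood at 85.3 and 82.3 CPM against 1.05 and 1.29 CPM, Syt6 had log2 ratios of 5.79 and 5.54, and Ror2 stood at 284 and 279 CPM against 5.71 and 6.51 CPM. Calcrl, which encodes the receptor shared by calcitonin gene-related peptide and adrenomedullin, was at 147 and 130.0 CPM against 3.37 and 4.36 CPM. Onecut1, a homeobox transcription factor, was at 149 and 132 CPM against 3.24 and 3.37 CPM. Bmp7, a growth factor of the TGF-beta family, was at 26.6 and 27.8 CPM against 0.718 and 0.789 CPM. The rest were Tyrp1, Pla2r1, Slc43a3, Cubn, Avil, Pou4f1, D130009I18Rik and Gm43066, and the last of these lies within Syt6 on the same strand, so that its reads cannot be separated from those of Syt6. Pla2r1, Cubn and Avil overlap genes on the opposite strand, and use of the strand in counting was not stated.

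Among transcription factors, Sox6, Zic1 and Irx2 were higher in Pde11a than in other glutamatergic nuclei, but not 2-fold higher than in Chat nuclei. Of 42 listed factors 26 passed the filter, 11 were 2-fold higher and 6 were 2-fold lower than in other glutamatergic nuclei, against 5.76% and 7.05% of all genes. Higher factors such as Pou4f1, Irx2 and Nr4a2 passed the filter only through their level in the Pde11a nuclei, so the count is no test. Against Chat nuclei 2 of 32 were higher and 8 lower (2.54% and 2.91% of all genes), and against Ptprq nuclei 5 of 28 were higher and 4 lower (2.12% and 2.58%). Pou4f1 was at 91.6 and 78.2 CPM against 2.80 and 2.53 CPM, and Sox6 at 451 and 397 CPM against 15.5 and 20.7 CPM, with 376 and 342 CPM in Chat nuclei. Zic1, a zinc finger factor of the dorsal midline, was at 228 and 201 CPM against 59.9 and 49.2 CPM, with 192 and 167 CPM in Chat nuclei, and Irx2, an Iroquois homeobox factor, at 49.2 and 53.8 CPM against 3.16 and 3.38 CPM, with 44.0 and 45.8 CPM in Chat nuclei. Nr4a2 was also higher, at 39.7 and 28.8 CPM against 9.34 and 7.33 CPM. Otx2, a homeobox factor of the forebrain and midbrain, was too low for the filter, with 41.6 and 32.8 CPM against 1.30 and 1.34 CPM. The lower factors included Rora, Rorb (136 and 131 CPM against 486 and 453 CPM), Foxp2 (181 and 173 CPM against 585 and 564 CPM) and Tshz2, 4 factors that were plentiful in the other glutamatergic nuclei.

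The rule gene D130079A08Rik lies beside Pou4f1. On GRCm38, D130079A08Rik covers chr14:104288431-104459336 and Pou4f1 chr14:104461676-104467999, both on the minus strand and 2339 bases apart. D130009I18Rik, another long noncoding RNA, begins 144.8 kb beyond Pou4f1 on the plus strand and stood at 855 and 774 CPM, against 16.8 and 19.7 CPM in other glutamatergic nuclei. This neighbourhood was chosen after its values had been seen. Of its 14 genes 7 were measured, with at least 50 UMIs in the Pde11a nuclei of each library, so the counts are no test. The shares of all genes set beside them rest on a different filter, a mean of 20 CPM over both sets. D130079A08Rik was high by the rule, and 3 of the other 6, Pou4f1, D130009I18Rik and Rnf219, were at least 2-fold higher in both libraries, against 5.76% of all genes compared. Rnf219 was at 30.9 and 29.1 CPM against 14.2 and 13.4 CPM. Toward either side Slain1, at 53.1 and 60.6 CPM against 55.7 and 53.9 CPM, and Rbm26, at 208 and 198 CPM against 198 and 183 CPM, were not among the 2-fold higher genes. Over Chat nuclei only 1 of the 7 was 2-fold higher, the rule gene, and over Ptprq nuclei only 1, D130009I18Rik (2.54% and 2.12% of all genes). Pou4f1 stood at 46.0 and 41.7 CPM in Chat and at 57.8 and 33.3 CPM in Ptprq nuclei. D130009I18Rik stood at 441 and 437 CPM and at 367 and 287 CPM in these sets.

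The promoters of the 2 rule genes, of Pou4f1 and of the leading gene Kcng4 are shown because 3 of their transcription factors, Otx2, Pou4f1 and Onecut1, have short core motifs that can be looked up in them. Each sequence is from RefSeq on GRCm38.p6, reads 5′ to 3′ on the minus strand on which the gene lies, and runs from 250 bases before to 50 bases after the start. Capitals mark the letters TAATCC (Otx2) and ATTAAT (Pou4f1), sought on both strands, and ATCAAT (Onecut1) was sought as well. They cover chr14:104467950-104468249 for Pou4f1, chr14:104459287-104459586 for D130079A08Rik, chr8:119635631-119635930 for Kcng4 and chr2:76338889-76339188 for Pde11a.
D130079A08Rik: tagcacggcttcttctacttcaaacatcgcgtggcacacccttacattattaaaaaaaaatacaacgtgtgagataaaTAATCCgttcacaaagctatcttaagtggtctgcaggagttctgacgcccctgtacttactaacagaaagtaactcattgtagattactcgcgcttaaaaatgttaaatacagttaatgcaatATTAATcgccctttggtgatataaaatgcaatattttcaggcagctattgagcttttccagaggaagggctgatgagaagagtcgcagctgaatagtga
Kcng4: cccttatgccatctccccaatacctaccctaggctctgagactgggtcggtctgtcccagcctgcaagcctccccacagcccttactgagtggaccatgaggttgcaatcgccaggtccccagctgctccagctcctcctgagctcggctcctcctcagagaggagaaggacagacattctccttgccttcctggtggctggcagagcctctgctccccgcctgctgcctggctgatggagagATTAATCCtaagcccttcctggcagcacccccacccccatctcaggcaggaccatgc
Pou4f1: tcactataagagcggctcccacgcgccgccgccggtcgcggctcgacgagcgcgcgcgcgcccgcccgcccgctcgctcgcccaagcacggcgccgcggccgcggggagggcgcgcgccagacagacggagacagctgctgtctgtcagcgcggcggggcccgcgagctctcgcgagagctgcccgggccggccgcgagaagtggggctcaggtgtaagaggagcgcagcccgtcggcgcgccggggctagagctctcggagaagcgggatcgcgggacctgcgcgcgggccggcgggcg
Pde11a: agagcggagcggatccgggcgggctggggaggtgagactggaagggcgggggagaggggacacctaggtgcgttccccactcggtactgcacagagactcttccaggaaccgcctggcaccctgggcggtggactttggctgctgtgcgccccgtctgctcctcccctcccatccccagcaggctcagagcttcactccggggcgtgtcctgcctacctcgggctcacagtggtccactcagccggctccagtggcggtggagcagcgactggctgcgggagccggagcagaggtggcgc
D130079A08Rik held TAATCC at 172 and ATTAAT at 49 bases before the start, Kcng4 held both in the overlapping run ATTAATCC at 7 bases before the start, and no match lay in the GC-rich windows of Pou4f1 (78.3% G and C) and Pde11a (69.3%). Among 32851 promoters of this length, 7.06% held TAATCC, 4.75% ATTAAT, 7.54% ATCAAT, 0.794% both of the first 2, and 0.396% the run ATTAATCC. Of the 15 leading genes 12 had a promoter in the table, and TAATCC was found in 3 of them (Kcng4, Pla2r1 and Tyrp1), ATTAAT in 2 (D130009I18Rik and Kcng4) and ATCAAT in 2 (Avil and D130009I18Rik). A leading gene was counted if any of its promoters held the letters, while the shares above are of single promoters, so the 2 are not the same measure. A match describes the letters and not the binding of a factor.

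Tachykinin peptides and the mu opioid receptor were higher in the Pde11a nuclei. Of 21 neuropeptide genes 6 passed the filter against the other glutamatergic nuclei, and 3 were 2-fold higher, namely Tac1, Tac2 and Adcyap1, against 5.76% of all genes. All 3 passed the filter only through their level in the Pde11a nuclei, so the count is no test. Tac1 was at 60.3 and 43.7 CPM against 2.50 and 1.78 CPM, and Adcyap1, which encodes the peptide PACAP, at 42.8 and 28.4 CPM against 5.57 and 3.99 CPM. At 3000 UMIs Tac1 was detected in 19.6% of sham and 16.1% of injury Pde11a nuclei, and Tac2 in 25.9% and 27.2%, while oligodendrocyte nuclei gave 0 of 104 in the sham library for both genes, which allows up to 3.48%, and 0.949% and 0.633% in the injury library. Both tachykinins were detected in 15 sham and 20 injury nuclei, Tac1 alone in 48 and 37, Tac2 alone in 68 and 76, and neither in 190 and 220. Oprm1, which encodes the mu opioid receptor, was at 466 and 479.5 CPM against 144 and 152 CPM, and was detected in 64.5% and 63.7% of Pde11a nuclei, against 4.81% and 10.8% of oligodendrocyte nuclei. Its level was 119 and 163 CPM in Ptprq nuclei and 74.6 and 86.8 CPM in Chat nuclei, so that the Pde11a nuclei had the highest level of the 4 sets in both libraries.

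Enzymes that make and break cyclic nucleotides differed in their pattern. Apart from Pde11a itself, 12 of the phosphodiesterase genes passed the filter, with 2 higher and 3 lower than in other glutamatergic nuclei (5.76% and 7.05% of all genes). Against Ptprq nuclei 0 of 11 were 2-fold higher and 1 lower (2.12% and 2.58% of all genes), and against Chat nuclei 0 of 10 were higher and 1 lower (2.54% and 2.91%). Pde1a, which encodes a calcium-dependent phosphodiesterase, was at 1036 and 1009.8 CPM against 92.2 and 105 CPM (529 and 585 CPM in Ptprq and 757 and 807 CPM in Chat nuclei), and Pde2a, whose product is stimulated by cGMP, at 117 and 131 CPM against 25.1 and 28.6 CPM. Chat nuclei had more Pde2a, with 507 and 538 CPM. The lower genes were Pde1b, Pde9a and Pde7b, the last at 118 and 127 CPM against 465 and 518 CPM. Among 21 genes of cyclic nucleotide synthesis and effectors that passed the filter, 3 were higher and 3 lower. Gucy1a1 and Gucy1b1, which encode the subunits of the nitric oxide receptor guanylyl cyclase, were both among the higher ones, at 223 and 238 CPM against 10.5 and 11.7 CPM, and at 115 and 109 CPM against 49.2 and 43.9 CPM. Prkar2b, a regulatory subunit of protein kinase A, was at 102 and 105 CPM against 50.3 and 51.5 CPM. The lower ones were the adenylyl cyclases Adcy1 and Adcy5 and the cGMP-dependent kinase Prkg2. Against Ptprq nuclei only 1 of 21 genes of this list was 2-fold higher and 0 were lower (2.12% and 2.58% of all genes). Against Chat nuclei 1 of 22 was higher and 3 were lower (2.54% and 2.91%).

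Synaptotagmins are membrane trafficking proteins, some of which sense calcium for vesicle release, and Syt6 was 1 of 3 higher members among the 11 that passed the filter. Syt9 stood at 1248 and 1276 CPM against 194 and 219.9 CPM in other glutamatergic nuclei and Syt13 at 161 and 162 CPM against 68.8 and 73.0 CPM. No synaptotagmin was 2-fold lower (5.76% of all genes were higher and 7.05% lower), and Syt1, the main fast calcium sensor of the forebrain, was at 1993 and 1953 CPM against 2742 and 2574 CPM. Chat nuclei had as much Syt9 or more, with 1837 and 1807 CPM, and less Syt6, with 268 and 272 CPM.

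**Figure D2:**
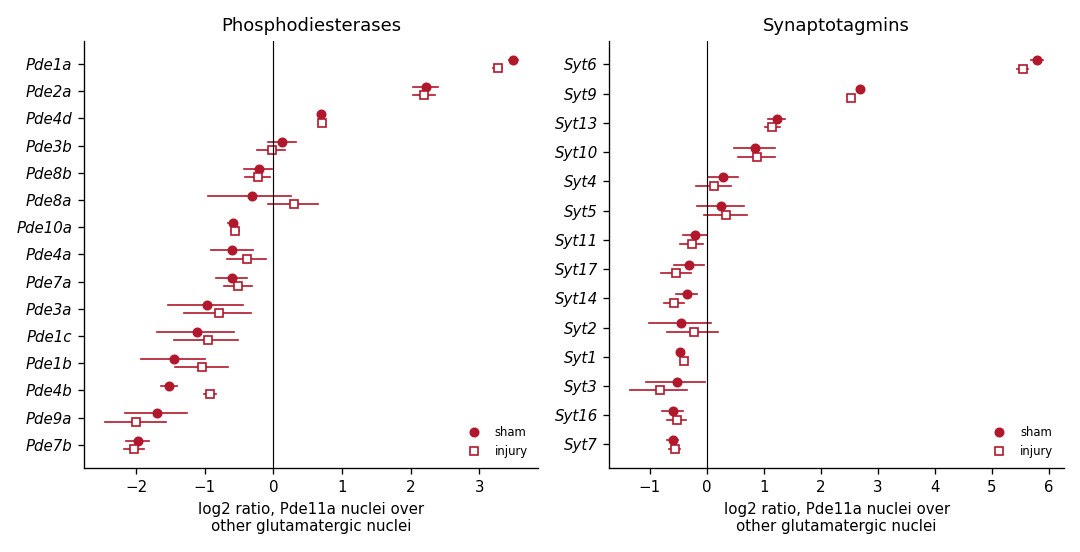
Log2 ratio of summed CPM in Pde11a nuclei over other glutamatergic nuclei for phosphodiesterases without the rule gene Pde11a (left) and synaptotagmins (right) with at least 25 UMIs in the Pde11a nuclei of each library, ordered by the sham value. Filled circles stand for the sham and open squares for the injury library, and lines are 95% counting intervals. Pde1a (3.49 and 3.26) and Syt6 (5.79 and 5.54) are the uppermost genes, and the libraries keep nearly the same order.

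Receptors for glutamate and GABA were mostly lower than in other glutamatergic nuclei. Of 23 glutamate receptor genes 2 were 2-fold higher and 10 were 2-fold lower, with medians of -0.57 and -0.65, against 5.76% and 7.05% of all genes. The higher ones were Gria1, an AMPA receptor subunit, at 2338 and 2611 CPM against 539 and 669.8 CPM, and Grm3, a presynaptic and glial metabotropic receptor, at 563 and 566 CPM against 140.2 and 149.5 CPM. Gria3, another AMPA receptor subunit, was among the lower ones, at 122 and 132 CPM against 430.1 and 454 CPM. Of 14 GABA receptor genes 1 was higher and 8 were lower, with medians of -1.17 and -1.37. Gabbr1, a subunit of the metabotropic GABA-B receptor, was the higher gene at 349 and 331 CPM against 142 and 139 CPM, while Gabra4 and Gabrb2, subunits of ionotropic receptors, were at 113 and 93.8 CPM and at 182 and 200.5 CPM, against 414 and 336 CPM and 618 and 599.9 CPM. Against Ptprq nuclei 0 of 22 glutamate receptor genes were 2-fold higher and 5 lower, and 1 of 13 GABA receptor genes was higher and 2 were lower (2.12% and 2.58% of all genes). Against Chat nuclei 2 of 21 glutamate receptor genes were higher and 1 was lower, and 0 of 11 GABA receptor genes were higher and 1 was lower (2.54% and 2.91% of all genes), with medians of 0.25 and 0.04 for glutamate and 0.15 and 0.31 for GABA receptors.

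Guidance genes were more often lower than higher against other glutamatergic nuclei, where 5.76% of all genes were 2-fold higher and 7.05% lower, and a few Wnt pathway genes were higher. Of 14 Wnt ligand and receptor genes 3 were higher and 0 lower, namely Ror2, Ptk7 (37.3 and 40.0 CPM against 15.9 and 18.3 CPM) and the target Axin2 (60.3 and 55.2 CPM against 29.7 and 27.0 CPM). Wif1, which encodes a secreted Wnt inhibitor and was named in the comparison with Chat nuclei, was at 86.9 and 89.7 CPM, against 3.89 and 3.36 CPM in other glutamatergic nuclei. Against Ptprq nuclei 1 of 13 Wnt genes was higher and 0 lower (2.12% and 2.58% of all genes), and against Chat nuclei 1 of 14 was higher and 1 lower (2.54% and 2.91%). Of 40 adhesion and guidance genes 7 were higher and 13 lower than in other glutamatergic nuclei. Against Ptprq nuclei 0 of 41 were higher and 13 lower, and against Chat nuclei 6 of 39 were higher and 4 lower. The semaphorin receptor Nrp2 was at 614 and 612 CPM against 58.2 and 62.8 CPM, the commissural receptor Robo3 at 124 and 135 CPM against 11.7 and 13.6 CPM, and the guidance ligand Slit2 at 357 and 349 CPM against 110.1 and 114 CPM. Unc5c, a netrin receptor, was lower at 428 and 357 CPM against 1312 and 1278 CPM.

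Chat nuclei were set apart from the Pde11a nuclei in their cholinergic genes by the rules, and they also differed in part of the medial habenula markers. Of 6728 genes that passed the filter 171 (2.54%) were at least 2-fold higher and 196 (2.91%) at least 2-fold lower in the Pde11a nuclei of both libraries. The rule set Chat and Slc5a7 to 0, and Slc18a3, the vesicular acetylcholine transporter within the Chat gene, was also at 0 UMIs in both libraries and at 3.09 and 2.46 CPM in Chat nuclei. Of 12 medial habenula markers compared 3 were 2-fold higher (Gng8, Tac1 and Calb2) and 5 were 2-fold lower (Chrna3, Chrnb3, Chrnb4, Lrrc55 and Nr4a2). Of 9 nicotinic receptor genes 3 passed the filter and were 2-fold lower, and Chrnb3 and Chrnb4 passed it only through their level in Chat nuclei. Chrna3 was at 29.0 and 22.0 CPM against 135 and 159.9 CPM, Chrnb4 at 15.1 and 17.3 CPM against 62.2 and 61.8 CPM, and Chrnb3 at 9.91 and 10.2 CPM against 105 and 90.5 CPM. The 8 leading lower genes held Synpr, which encodes the vesicle protein synaptoporin (16.7 and 15.9 CPM against 944 and 925 CPM), Lmo3 (6.35 and 7.11 CPM against 379 and 273 CPM), Piezo2 (3.57 and 5.76 CPM against 155 and 143 CPM), Nfam1, Lamc3, Arhgap28, Emid1 and Cdh3, of which Arhgap28 and Cdh3 lay below the filter. In the other direction stood Tac1 (60.3 and 43.7 CPM against 1.93 and 1.64 CPM), Onecut1 (149 and 132 CPM against 3.09 and 4.72 CPM), Wif1 (against 3.86 and 1.85 CPM) and Col16a1, which encodes a collagen chain (469.6 and 486 CPM against 27.0 and 21.1 CPM). Tac2 differed less, with 41.0 and 45.0 CPM in Chat nuclei, and Nwd2 was higher there, with 6662 and 6997 CPM against 3964 and 3869 CPM.

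The 4 other leading genes over the Chat nuclei lay in 1 stretch of chromosome 8. From Tenm3 (chr8:48227682-48843951, minus strand), which encodes a teneurin adhesion protein, to C130073E24Rik (chr8:50743291-50916997), the stretch spans 2689 kb and holds 12 genes, of which 9 were measured in the Pde11a nuclei. It was chosen after its values had been seen. Measured here means at least 50 UMIs in the Pde11a nuclei of each library. A gene could thus enter only through its level in these nuclei, so the count is no test. All 9 were at least 2-fold higher than in the other glutamatergic, Chat and Ptprq nuclei of both libraries. Of all genes compared 5.76%, 2.54% and 2.12% were, under the different filter of a mean of 20 CPM over both sets. Tenm3 was at 2312 and 2222 CPM, against 749 and 779 CPM in other glutamatergic, 844 and 848 CPM in Ptprq, and 286 and 257 CPM in Chat nuclei. The 8 others are noncoding genes. 4930555F03Rik was at 2026 and 2160.2 CPM, against 258 and 281 CPM, 633 and 706 CPM, and 105 and 116 CPM in the same sets. C130073E24Rik was at 2506 and 2281 CPM, against 273 and 276 CPM, 749.8 and 678 CPM, and 148 and 126 CPM. The order of the sets was thus the same along the whole stretch, with Pde11a nuclei highest and Chat nuclei lowest.

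**Figure D3:**
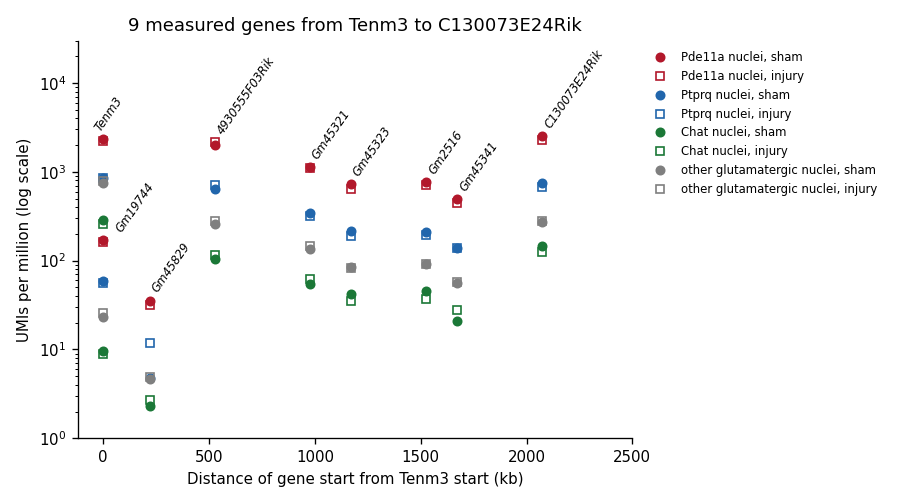
CPM (log scale) of the 9 measured genes from Tenm3 to C130073E24Rik on chromosome 8, placed by the distance of their start from the Tenm3 start in kb, in 4 sets of nuclei of the sham (filled circles) and injury (open squares) library. At every gene the Pde11a nuclei lie above the other 3 sets, and the Chat nuclei lie lowest.

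Most of the lateral habenula markers compared were lower in the Pde11a nuclei than in Ptprq nuclei. Of 6832 genes 145 (2.12%) were at least 2-fold higher and 176 (2.58%) at least 2-fold lower in the Pde11a nuclei of both libraries. Of 6 lateral habenula markers 0 were higher and 5 were lower, with medians of -2.06 and -1.78, against -0.04 and -0.03 over all genes. The serotonin receptor Htr2c was at 136 and 159 CPM against 2313 and 1802 CPM, Gap43, a growth cone protein, at 65.8 and 58.2 CPM against 170.1 and 170.0 CPM, and Pcdh10, Plch1 and Parm1 were the others. Of 9 medial habenula markers 4 were higher and 1 was lower, with medians of 0.66 and 1.19. At 3000 UMIs Nwd2 was detected in 90.4% of sham and 85.8% of injury Ptprq nuclei. Of 6 monoamine receptor genes 1 was higher and 2 were lower. The muscarinic receptor Chrm2 was at 76.5 and 58.9 CPM against 919 and 719 CPM. Popdc3 and Bves, which encode proteins of the cAMP-binding Popeye family and lie close together on chromosome 10, had 4 and 2 UMIs and 5 and 1 UMIs in the Pde11a nuclei, and stood at 73.7 and 72.2 CPM and at 54.4 and 44.4 CPM in Ptprq nuclei. In the other direction, Chrna3, which lay below the filter, was at 29.0 and 22.0 CPM against 1.38 and 2.08 CPM on 2 and 3 UMIs, and Gfra2, a receptor of the neurturin family, at 55.1 and 55.5 CPM against 7.57 and 4.86 CPM. Syt6, Syt9 and Syt13 were each at least 2-fold higher in the Pde11a nuclei here too.

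The Pde11a nuclei were not uniform. Among the components of the sham Pde11a nuclei that did not follow depth, the leading one held 3.06% of the variance of 1000 variable genes and the same search in the injury nuclei gave 3.08%. Of the 10 genes at each end 6 and 6 were shared by the 2 libraries. To read the ends without circularity, the genes of the sham list were divided into alternate genes, nuclei were scored on 1 part, and genes of the other part were read in the 130 injury nuclei with the highest and the 130 with the lowest scores. Their median depths were 5710.5 UMIs at the upper and 5751 or 6474 UMIs at the lower end, depending on the genes scored. The choice of this axis and of the genes read along it was made after values had been seen.

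At the upper end the sodium-calcium exchanger gene Slc8a1 was at 1713 CPM, against 272 CPM at the lower end, a log2 ratio of 2.65 (2.46 to 2.86). Asic2, an acid-sensing channel gene, was at 4857 against 673 CPM, and Gabra2, a GABA receptor subunit gene, at 1013 against 148 CPM. At the lower end Unc13c, which encodes a vesicle priming protein, was at 1037 CPM against 101 CPM, and the transcription factor Nfib was at 472 against 34.0 CPM. Fras1, an extracellular matrix gene, had 277 UMIs at the lower and 8 at the upper end. The noncoding gene Gm12128 had 158 UMIs at the upper and 0 at the lower end. Its log2 ratio was 5.83 with the empty sum set to 3 UMIs, and its interval ran from 5.52 upward without limit. In single nuclei the noncoding genes Gm12128 and Gm49678, each from 1 end of the list drawn from the sham nuclei, were counted as a description. Of the 370 sham Pde11a nuclei 79 held Gm12128 alone, 71 held Gm49678 alone, 1 held both and 219 held neither, and of the 392 injury nuclei the numbers were 98, 93, 1 and 200.

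Genes outside the 2 lists followed this axis in part. They were read with scores from the alternate genes that include Tenm2 and Unc13c, and not from the full lists. Calb1, a calcium-binding protein gene, was at 139 CPM at the upper and 14.6 CPM at the lower end of the injury nuclei, Wif1 at 205 and 23.6 CPM, Oprm1 at 914 and 246 CPM, and Chrna3 at 47.5 and 6.75 CPM. The axis was drawn from the sham nuclei, so values in them are no independent reading. In the sham nuclei Calb1 was at 148 and 17.5 CPM, Wif1 at 195 and 31.3 CPM, and Oprm1 at 832 and 285 CPM. The rule genes also varied, with Ptprq at 68.2 and 207 CPM in the injury and 76.1 and 199.0 CPM in the sham nuclei, and Pde11a at 960.1 and 1299 CPM and at 1004 and 1258 CPM, both higher at the lower end. Syt6 likewise was at 564 CPM at the upper and 1227 CPM at the lower end. Little difference was seen in Nwd2 (0.13, 0.07 to 0.20), Ror2 (0.16, -0.09 to 0.40), Pou4f1 (0.25, -0.20 to 0.71) and Onecut1 (-0.17, -0.55 to 0.20). The tachykinins had no common direction, since Tac1 was at 64.6 and 38.2 CPM in the injury and at 49.2 and 76.3 CPM in the sham nuclei, and Tac2 at 84.1 and 97.8 CPM and at 115 and 80.1 CPM. The score had no empty bin between its ends, and 72 sham and 63 injury nuclei lay within 0.1 of the values that cut the sham nuclei into 3 equal parts, so each end is a range cut from a score. Whether it holds distinct types was not tested. Past those values lay 31.6% (27.1 to 36.5) of the injury nuclei at the upper and 37.8% (32.9 to 42.8) at the lower end.

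**Figure D4:**
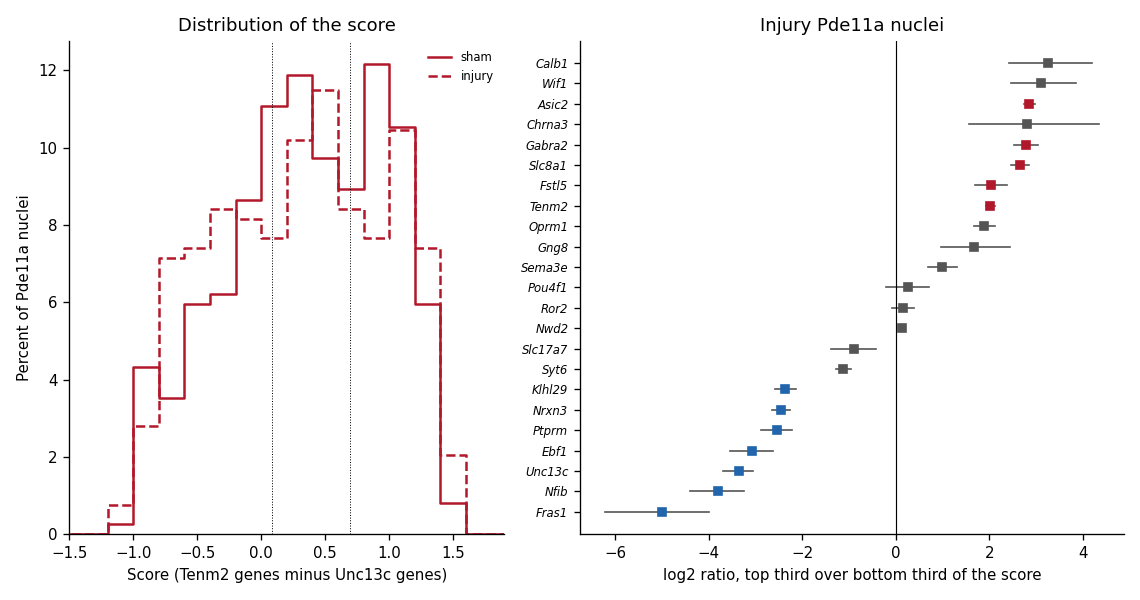
Left, percent of Pde11a nuclei by score, the mean log-normalized level of the 10 Tenm2-end genes minus that of the 10 Unc13c-end genes (halved), in the sham (solid line) and injury (dashed line) library, with dotted lines at the values that cut the sham nuclei into 3 equal parts. Right, log2 ratio of CPM in the 130 injury nuclei with the highest over the 130 with the lowest scores, with 95% counting intervals, in red for Tenm2-end genes, blue for Unc13c-end genes and grey for others. Scores of the right panel used alternate genes of the lists. For a list gene this was the part without it, and for others the part with Tenm2 and Unc13c. Both histograms are broad, with no empty bin between the ends, and Calb1, Wif1 and Oprm1 side with the Tenm2 end.

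To ask whether cortical injury was accompanied by a different number of these neurons, their shares were compared. Pde11a nuclei made up 2.26% (2.04 to 2.50) of the sham and 1.80% (1.63 to 1.99) of the injury library, a log2 ratio of -0.33 (-0.54 to -0.12). Among nuclei with a UMI of Slc17a6 and none of Gad1 and Gad2 they made up 2.16% (1.85 to 2.50) and 2.18% (1.88 to 2.51), 2 shares whose intervals overlap. These count only the 173 and 184 Pde11a nuclei with a Slc17a6 UMI. Chat nuclei made up 2.12% and 3.38% of the same nuclei. Ptprq nuclei made up 1.02% and 0.689% of the libraries, Chat nuclei 2.14% and 2.64%, other glutamatergic nuclei 46.3% and 36.2%, and oligodendrocyte nuclei 3.95% and 6.48%. A lower share of Pde11a nuclei therefore went with a lower share of glutamatergic nuclei as a whole, and fewer such nuclei, other nuclei in greater number and a different dissection cannot be told apart.

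Few genes differed between injury and sham Pde11a nuclei. Of 9702 genes with at least 50 UMIs over both libraries, 60 (0.618%) were at least 2-fold higher and 29 (0.299%) at least 2-fold lower in the injury nuclei, and the median log2 ratio was 0.00. The shares were 0.655% and 0.414% of 7483 genes in Ptprq nuclei, 0.764% and 0.321% of 10604 in Chat nuclei, and 1.07% and 0.203% of 18675 in other glutamatergic nuclei. The floor of 50 UMIs was applied within each set, so these shares rest on different genes and depths. Most of the genes that mark the Pde11a nuclei differed little, though Tac1, given below, was lower. Syt6 had a log2 ratio of 0.02 (-0.07 to 0.11), Ror2 -0.02 (-0.17 to 0.12), Nwd2 -0.04 (-0.07 to 0.00), Tac2 -0.05 (-0.32 to 0.22), Oprm1 0.04 (-0.07 to 0.16) and Pou4f1 -0.23 (-0.50 to 0.04). The 2 rule genes Pde11a and D130079A08Rik had -0.07 and 0.01. Of 12 medial habenula markers compared 3 had ratios above and 9 below 0, with a median of -0.06, where 4778 of all 9702 genes were below 0, and Kcng4 was lower, with 252 and 220 UMIs and a ratio of -0.42 (-0.69 to -0.16).

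Many of the higher genes were abundant in oligodendrocyte nuclei. The leading ones were Prr5l, with 12 sham and 135 injury UMIs and a log2 ratio of 3.26 (2.41 to 4.25), Daam2, D7Ertd443e, the nuclear noncoding RNA Neat1, Lrmda, Aspa, Gjc3, St18 (43 and 212 UMIs, 2.07), Creb5, Rasl10b, Lama2 and Mertk. Of these 12 genes, all but Rasl10b and Mertk stood at 309 CPM or more in oligodendrocyte nuclei of both libraries. Of the 60 higher genes 32 (53.3%) were at least 4-fold higher in oligodendrocyte nuclei than in sham Pde11a nuclei, against 404 of all 9702 genes (4.16%) and 0 of the 29 lower ones. Both ratios rest on the same sham Pde11a counts, so an error of counting there moves them together, and these shares are a description. The 7 listed oligodendrocyte markers summed to 142 CPM in sham and 315 CPM in injury Pde11a nuclei, and all 6 that could be compared were higher, with a median of 1.05. The same sum was 156 and 182 CPM in Ptprq nuclei, 60.7 and 247 CPM in Chat nuclei, and 97.1 and 168 CPM in other glutamatergic nuclei. At least 3 UMIs of these markers were found in 7 sham (1.89%) and 31 injury (7.91%) Pde11a nuclei. Without those nuclei 34 genes were at least 2-fold higher, Prr5l was at 1.07, D7Ertd443e at -0.69 and St18 at 0.90. The median of the oligodendrocyte list was then also lower, as it was without called doublets, with values given at the end. Pde4b, a cAMP phosphodiesterase, was higher at 246 and 396 CPM (0.69, 0.54 to 0.83). It stood at 8064 and 8006 CPM in oligodendrocyte nuclei, and without the same nuclei its ratio was 0.48.

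**Figure D5:**
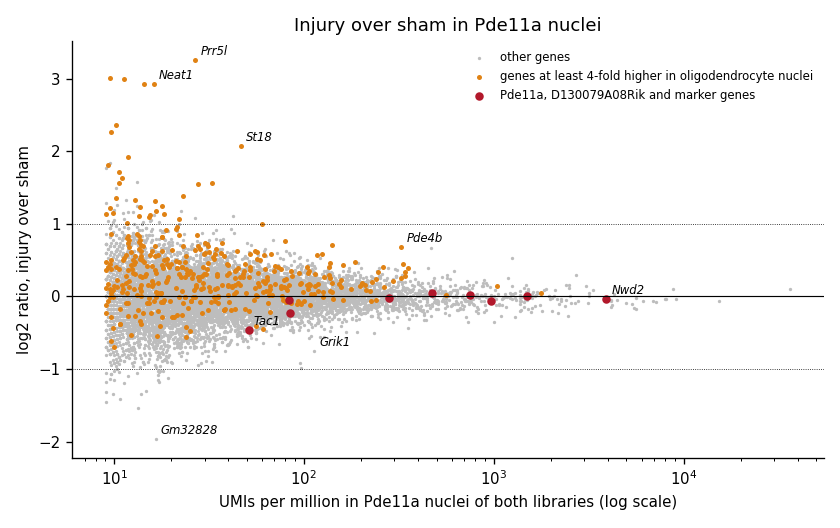
Log2 ratio of CPM, injury over sham, in Pde11a nuclei against CPM in the Pde11a nuclei of both libraries (log scale), for 9702 genes with at least 50 UMIs. Orange points are genes at least 4-fold higher in oligodendrocyte nuclei than in sham Pde11a nuclei, red points are Pde11a, D130079A08Rik and 7 marker genes, and dotted lines mark a 2-fold difference. Orange points make up most of the highest ratios (Prr5l, 3.26), while most of the red points lie near 0 and Tac1 lies lower.

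Among the lower genes were 2 of the 7 axon injury and stress genes compared, the transcription factors Atf4 (42 and 23 UMIs, -1.10) and Sox11 (36 and 21 UMIs, -1.01), where 0.299% of all genes were 2-fold lower. The median of that list was -0.18, and it turned to 0.30 without called doublets and to 0.24 after thinning. The leading lower gene, the noncoding gene Gm32828 (chr12:7524002-7859766), had 70 sham and 21 injury UMIs, a log2 ratio of -1.96 (-2.74 to -1.24), while its ratio was 0.43 in Ptprq, 0.64 in Chat and -0.18 in other glutamatergic nuclei. It was followed by K230010J24Rik, Tut1, Gtf2b, Zfp212, Tmem59l, Pcgf1, Ppp1r14b, Nomo1, Cpa6, Tvp23b and Cldnd1, with ratios from -1.54 to -1.16 on 33 to 62 sham UMIs. Of these, Cpa6 turned direction, to 3.29 without called doublets, 1.18 after thinning and 0.26 with no limit on D130079A08Rik. Grik1, a kainate receptor subunit named after its values had been seen, had 367 and 255 UMIs and a ratio of -0.75, which was -0.03 without called doublets.

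Among the listed genes, most of the peptide and ribosomal protein genes had ratios below 0. Over all genes compared 4778 of 9702 did. Of 7 neuropeptide genes compared 6 were below 0, with a median of -0.46, while Chga was at 0.38. Tac1 had 152 and 129 UMIs and a ratio of -0.46 (-0.81 to -0.12), Adcyap1 108 and 84 UMIs (-0.59, -1.02 to -0.17) and Cck 68 and 49 UMIs (-0.70, -1.26 to -0.15). In other glutamatergic nuclei these 3 genes had ratios of -0.49, -0.48 and -0.77, while Cck had 0.69 in Ptprq nuclei. Of 74 ribosomal protein genes 68 were below 0 and 2 at least 2-fold lower, with a median of -0.36 and a sum of 1824 and 1429 CPM. Medians of this list were -0.33 in Ptprq, -0.32 in Chat and -0.43 in other glutamatergic nuclei. Gene lists of the glutamatergic synapse (27 genes, -0.01), the presynapse (25 genes, 0.08), and immediate early genes (7 genes, -0.08) had medians closer to 0. Of 5 nicotinic receptor genes 3 were below 0 and 2 above, with a median of -0.39. Fos, the best known immediate early gene, had 4 and 3 UMIs, too few for a comparison.

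A few single genes were picked after their values had been seen. Cngb3, which encodes a subunit of cyclic nucleotide-gated channels, had 166 sham and 293 injury UMIs, or 65.8 and 99.2 CPM, a log2 ratio of 0.59 (0.31 to 0.88), and stood at 2.39 and 2.18 CPM in other glutamatergic nuclei. Prkg2 had 36 and 84 UMIs and a ratio of 0.99 (0.41 to 1.60). The splicing factor gene Srsf2 had a ratio of -0.91 (-1.17 to -0.65) and was also lower in Ptprq (-0.48), Chat (-0.71) and other glutamatergic nuclei (-0.80). Gm42418, Cmss1 and Lars2, whose counts can include ribosomal RNA reads, were higher at 0.53, 0.67 and 0.52, as they were in the 3 comparison sets.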

How the data were processed

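RNA was measured by snRNA-seq (10x Genomics 3′ v3.1) in 2 libraries. The deposited files hold UMI counts per gene and nucleus, which the authors made with Cell Ranger 6.0.2 on mm10 (GRCm38). Whether intronic reads and strand were used in counting was not given in the sources used here. The 32285 genes were placed by GENCODE annotation, which named 32235.

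The members and gene lists were chosen with earlier results of these data known. Counts were summed over the nuclei of a set and expressed as CPM. Injury was compared with sham for genes with at least 50 UMIs over both libraries, and Pde11a nuclei with other sets for genes with a mean of at least 20 CPM, where a gene had to differ 2-fold in both libraries. A gene rare in the other set passed this filter only when high in the Pde11a nuclei, so such counts are no test. Medians and signs in gene lists, fold counts along the chromosome stretches and folds in oligodendrocyte nuclei added 0.5 UMIs to each sum. Other ratios were taken from the sums as counted, with an empty sum set to 3 UMIs. Intervals were exact Poisson, Clopper-Pearson or conditional binomial. Named genes were the 15 with the largest weaker-library ratio over other glutamatergic nuclei, the 8 in each direction against Ptprq and Chat nuclei (at least 50 UMIs in each library on the higher side), and the 12 in each direction between libraries with an interval that leaves out 0, beside members of the lists. Oligodendrocyte nuclei held at least 10 UMIs of oligodendrocyte marker genes and none of Slc17a6, Gad1 and Gad2. Doublets were called with Scrublet at a rate of 0.8% per 1000 nuclei and kept. Clusters used 2000 variable genes, 30 components and 15 neighbours (Leiden, resolution 1). Scripts were tested on simulated data and used Python 3.11.15, scanpy 1.11.5, scipy 1.17.1, and R 4.3.3 with edgeR 4.0.16 for TMM (trimmed mean of M values) factors. Alternatives changed the rule, depth, scaling, filter and doublets. Some genes are not reported here.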

Additional observations from a re-analysis of the deposited data

Results flagged for a closer look

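Shares of all kept nuclei moved in opposite directions in 2 habenula-like sets. The log2 ratio of the share, injury over sham, was -0.33 (-0.54 to -0.12) for Pde11a nuclei and 0.30 (0.11 to 0.50) for Chat nuclei. Among nuclei with a UMI of Slc17a6 and none of Gad1 and Gad2 the directions were not opposite, since the share was 2.16% (sham) and 2.18% (injury) for Pde11a and 2.12% and 3.38% for Chat nuclei. Each group was 1 library, and the difference was not tested.

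Gm32828, a noncoding gene, also differed in direction between these sets. Its log2 ratio, injury over sham, was -1.96 in Pde11a nuclei, on 70 and 21 UMIs, and 0.64 in Chat nuclei, where it stood at 12.8 and 19.9 CPM. The difference was not tested, and the gene was named for its low ratio in the Pde11a nuclei.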

How the results depend on the processing

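No paired analysis was possible because the sham and injury groups hold 1 pooled library each. Leaving out nuclei with 3 or more oligodendrocyte marker UMIs, and keeping only Pde11a nuclei inside their main cluster, were chosen after seeing the data. The share of Pde11a nuclei was 1.94% (sham) and 1.52% (injury) with at least 3 Pde11a UMIs, 2.66% and 2.17% with at least 1, 3.21% and 2.70% with no limit on D130079A08Rik, and 1.75% and 1.47% when nuclei were thinned before selection, and it was lower in the injury library each time. The 60 higher and 29 lower genes became 19 lower with at least 1 Pde11a UMI, 39 higher without called doublets, 28 and 13 after thinning to 3000 UMIs, 50 lower for the mean CPM of single nuclei, 2161 and 2253 with no filter, 11 and 1 with at least 100 UMIs, and 34 higher with fewer than 3 oligodendrocyte marker UMIs.

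The median of the axon injury list reversed, to 0.018 with at least 3 Pde11a UMIs, 0.30 without doublets and 0.24 after thinning. That of the oligodendrocyte list was 0.33 without doublets and 0.11 with fewer than 3 of its UMIs. Against other glutamatergic nuclei the sham lateral habenula median was -2.09 (mean CPM), -1.98 (thinned) and -2.03 (no doublets), and the thalamic relay median was -2.03 (injury, thinned) and -2.88 in both libraries without doublets. At 5000 UMIs detection was 86.3% for Syt6 (sham), 28.3% and 21.8% for Tac1, 32.8% for Tac2 (injury), 35.8% and 30.5% for Pou4f1, and 78.8% and 79.8% for Oprm1. Single genes reversed in 6 cases. Cpa6 was at 0.26 with no limit on D130079A08Rik, 3.29 without doublets and 1.18 after thinning, D7Ertd443e at -0.17 without doublets and -0.69 with fewer than 3 oligodendrocyte marker UMIs, and Il1rapl2 at 0.049 with no limit on D130079A08Rik. The cause was not tested.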
